A study of Mus musculus with 12 samples.

Results

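In all, 25 genes for proteins of the ribosome and of the mitochondrial respiratory chain, or for proteins with a like symbol, were followed in airway macrophages (AMs) of *Scnn1b*-Tg and wild-type (WT) mice. The deposited count table has 19161 rows without gene names. A name was given to 1999 rows, by matching each row's weighted mean count to the mean listed for a gene in the study's supplement. Of these 1999 named rows, 25 had a symbol that starts with *Rpl*, *Rps*, *Mrpl*, *Mrps*, *Nduf*, *Cox*, *Uqcr* or *Atp5*. They comprise 9 proteins of the cytoplasmic ribosome, 6 of the mitochondrial ribosome, 6 subunits of the respiratory chain and ATP synthase, 3 assembly factors, and *Rps6kc1*, a kinase-like gene that shares only the letters of its symbol. No pseudogene (-ps) was among them, so 0 are reported apart. All 25 passed the expression filter. The genes that carry a name were chosen by their p-value for *Scnn1b*-Tg against WT, and in the fit used here the members' unadjusted DESeq2 p-values ran from 2e-05 (*Ndufa12*) to 0.0628 (*Atp5g2*). *Cox4i2*, with 0.0624, was the next closest to this upper end. Genes of the same complexes beyond it carry no name and were not analysed here. The genotype differences below are therefore a description of genes chosen for that difference, with no test of the groups they form.

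The *Scnn1b*-Tg mouse overexpresses the beta subunit of the epithelial sodium channel under the club cell promoter CCSP, so the transgene is aimed at airway epithelium and not at the AMs that were sequenced. All animals were 6-week-old female C57BL/6 mice, and the controls were WT littermates. AMs were sorted from lung as CD45+, Siglec-F+ and CD11c+ cells, without any treatment. RNA was sequenced in 12 libraries, 6 per genotype. The labels do not name the animal behind each library, so p-values measure the spread between these libraries. Batches 1, 2 and 3 hold 1 library of each genotype, and batch 4 holds 3 of each. In batch 4 the libraries of the 2 genotypes came from different flow cells, so genotype and flow cell cannot be told apart there. Both kits of the study, a low-input paired-end kit and a strand-marking single-end kit, stand in the labels without the libraries they were used for.

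The cytoplasmic ribosome, made of a small (Rps) and a large (Rpl) subunit, translates messenger RNA. The mitochondrial ribosome (Mrps, Mrpl) translates the few proteins that mitochondrial DNA encodes, most of them subunits of the respiratory chain. Complex I (Nduf), complex III (Uqcr) and complex IV (Cox) of that chain pump protons across the inner mitochondrial membrane, and ATP synthase (Atp5) uses the gradient to make ATP. Resident AMs are known for their lipid and oxidative metabolism.

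Promoters are shown to place the members in the genome and to show sequence features that the choice of members did not use. RefSeq promoters of build GRCm38.p6, the build of the counts, were given for 18 of the 25 genes, as 19 promoters of 300 bases, with *Atp5sl* listed as *Dmac2* and having 2 starts. The windows of 60 bases below run from 40 bases before to 20 bases from the start, 5′ to 3′ on the gene's strand. Capitals mark a motif found on either strand: the NRF1 core GCATGCGC, the ETS core CCGGAAG or the cAMP response element TGACGTCA. *Rplp2* has none in its window and is shown for the run of pyrimidines around its start.
*Rpl37a*, chr1:72711220-72711279, plus strand: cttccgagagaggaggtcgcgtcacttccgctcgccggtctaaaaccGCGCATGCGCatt
*Rpl13*, chr8:123102310-123102369, plus strand: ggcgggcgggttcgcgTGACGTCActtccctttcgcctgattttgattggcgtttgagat
*Rplp2*, chr7:141447611-141447670, plus strand: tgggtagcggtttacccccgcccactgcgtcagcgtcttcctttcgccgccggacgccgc
*Mrpl9*, chr3:94443296-94443355, plus strand: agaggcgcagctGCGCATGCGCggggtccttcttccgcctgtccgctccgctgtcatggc
*Atp5g2*, chr15:102671028-102671087, minus strand: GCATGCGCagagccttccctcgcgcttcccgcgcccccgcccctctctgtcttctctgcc
*Atp5h*, chr11:115419900-115419959, minus strand: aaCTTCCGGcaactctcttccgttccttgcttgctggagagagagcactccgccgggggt
*Ndufaf1*, chr2:119662815-119662874, minus strand: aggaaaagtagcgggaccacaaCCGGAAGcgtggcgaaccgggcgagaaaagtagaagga
*Cox10*, chr11:64079453-64079512, minus strand: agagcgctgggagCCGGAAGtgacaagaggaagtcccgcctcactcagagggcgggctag

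Over the whole 300 bases and both strands, CCGGAAG stood in 8 of the 19 promoters, and in 8.86% of all 32851 RefSeq mouse promoters of this length. The letters AAGATGGC, part of the YY1 motif, stood in 5 of the 19, which belong to 4 genes since both overlapping promoters of *Atp5sl* hold it, and in 2.75% of all. GCATGCGC stood in 3 of the 19 (*Rpl37a*, *Mrpl9* and *Atp5g2*) and in 2.71% of all, and TGACGTCA in 2 (*Rpl13* and *Rps9*) and in 1.79% of all. None of these 4 strings contains another, and GCGCATGCGC holds GCATGCGC on both strands, as overlapping copies. The matches describe letters in a window and were not tested.

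The gene bodies differed between subgroups in what else they hold. In GENCODE, 5 of the 9 cytoplasmic ribosomal genes contain small nucleolar RNA genes, 9 in all, of which *Rpl21* (chr5:146832890-146837032, plus strand) holds 2. The other 16 members contain 0. The annotation names 29 pseudogenes (-ps) for 6 of the 9, with 15 for *Rpl21* and 6 for *Rpl13*. Counts of these genes can be split with such copies and are uncertain to that extent. Reads were counted without strand, and 8 members overlap a gene on the opposite strand (*Rps27a*, *Mrps30*, *Mrps28*, *Mrps27*, *Mrpl9*, *Uqcrc2*, *Uqcrb* and *Cox10*), so reads of that gene could enter their counts. On their own strand, *Rpl13* overlaps *Gm20388* and *Mrps28* overlaps *Gm15466*, with the same uncertainty. Whether exons overlap was not tested. All 25 members are protein-coding.

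Library totals were 65764040 to 121813289 estimated counts in batches 1 to 3 and 40259958 to 51832335 in batch 4. Levels below are CPM, counts scaled to a common library size, after TMM scaling, a method that sets libraries to a common level from the bulk of their rows. The sum of the 11 markers of airway macrophages that had a name, of 16, led by *Chil3* and *Lyz2*, was 45800 to 99100 CPM in *Scnn1b*-Tg and 45100 to 62700 CPM in WT libraries, with the highest value in *Scnn1b*-Tg replicate 1. Of the 11, 5 had a lower and 6 a higher estimate in *Scnn1b*-Tg, and 4 passed edgeR's test at an adjusted p under 0.1, beside 0.442% of all rows, but names were selected by p-value in this same contrast. *Krt79* (log2 difference −0.65) and *Siglecf* (−0.31), the gene of a sorting marker, were lower, and *Cd68* (0.52) and *Fabp5* (0.59) were higher. Named markers of other cells had smaller sums: 4 of 8 neutrophil markers summed to 39.7 to 71.6 CPM in *Scnn1b*-Tg and 31.6 to 71.9 CPM in WT. Most of that sum was *Csf3r*, with means of 37.2 CPM in *Scnn1b*-Tg and 47.5 CPM in WT. The other 3 had higher estimates in *Scnn1b*-Tg, with mean levels of 18 against 9.09 CPM for *Cxcr2*, 0.768 against 0.068 CPM for *Mmp9* and 1.63 against 0.144 CPM for *Cd177*, and 0 of the 4 passed. The epithelial marker *Cdh1*, the only 1 of 7 with a name, lay at 99.1 to 162 CPM and 86.9 to 125 CPM. Of the dendritic cell markers 3 of 8 summed to 0.8 to 85.9 CPM in *Scnn1b*-Tg and 0.298 to 7.59 CPM in WT, with the highest value in the same library, *Scnn1b*-Tg replicate 1. The monocyte marker *Vcan*, 1 of 7, stayed at or under 3.23 CPM. Eosinophil, B cell, T and NK cell and red blood cell markers had no name. The part of these cells in the results was not tested, and in a bulk sample fewer cells of a type and less RNA per cell cannot be told apart.

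The cytoplasmic ribosomal genes had the highest median level of the subgroups, with single genes of other subgroups above some of them. Per kilobase of exon their mean level ran from 42.9 to 736 CPM (median 344), against 3.88 to 44.6 CPM for the mitochondrial ribosome, 0.852 to 325 CPM for the respiratory chain and 6.53 to 11.8 CPM for the assembly factors. *Rps9*, a small subunit protein, had a mean of 2530 CPM in batches 1 to 3 and of 779 CPM in batch 4. The 9 cytoplasmic genes together took up 0.603% to 0.770% of all counts of a *Scnn1b*-Tg library and 0.720% to 0.849% of a WT library in batches 1 to 3. In batch 4 they took 0.318% to 0.422% in *Scnn1b*-Tg and 0.425% to 0.496% in WT. Within batch 4 the shares of the 2 genotypes did not overlap, though they nearly met, at 0.422% in *Scnn1b*-Tg replicate 5 and 0.425% in WT replicate 5. In batches 1 to 3 they overlapped. Of all single rows, 15.0% did not overlap in batch 4, and the 9 genes were chosen by p-value in this contrast.

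**Figure D1:**
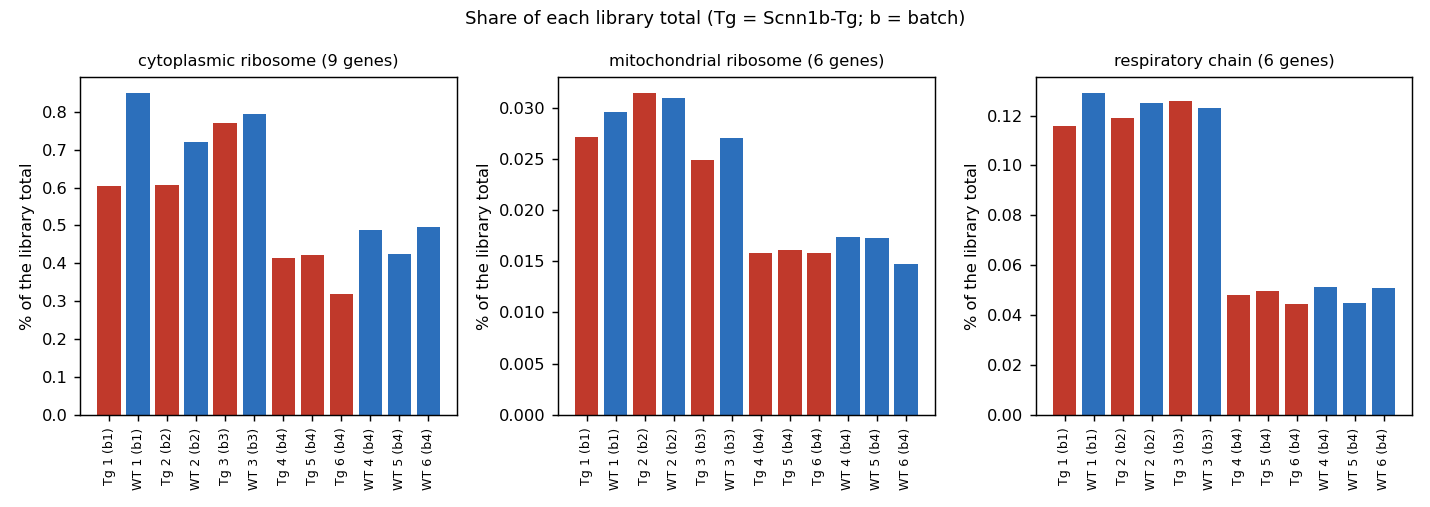
Share of each library's total count (percent, vertical axes) taken by the cytoplasmic ribosomal, mitochondrial ribosomal and respiratory chain genes in the 12 libraries, by batch and genotype. The cytoplasmic share lay at 0.603% to 0.849% in batches 1 to 3 and at 0.318% to 0.496% in batch 4.

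All 9 cytoplasmic ribosomal genes had a lower estimate in *Scnn1b*-Tg AMs than in WT AMs. The median log2 difference was −0.27 (range −0.55 to −0.21), beside a median of 0.01 over all 16972 rows tested, of which 48.2% had a lower estimate. None of the 9, and 0 of all 25 members, passed edgeR's quasi-likelihood test at an adjusted p-value under 0.1, which 0.442% of all rows passed. No cutoff on the size of the fold was applied. At an unadjusted p under 0.05, edgeR counted 19 of the 25, against 8.64% of all rows, and this contrast chose the members. DESeq2 called 2 of the 25, among them *Ndufa12*, and 3.15% of the rows it tested. Neither of the 2 reached an absolute log2 difference of 0.5, the fold cutoff that the study sets beside the adjusted p.

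Among the small subunit genes, *Rps27a*, which encodes a ribosomal protein fused to ubiquitin, read 208, 476 and 678 CPM (lowest, median and highest) in *Scnn1b*-Tg and 348, 497 and 1130 CPM in WT. Its log2 difference of −0.31 ± 0.15 (SE, 12 libraries) was widest in batch 1, at 678 against 1130 CPM. In batch 4 its genotypes overlapped, with 396 CPM in *Scnn1b*-Tg replicate 4 and 393 CPM in WT replicate 4. *Rps15* (333, 423 and 547 CPM against 416, 500 and 614 CPM) had a difference of −0.27 ± 0.11. *Rps9* (567, 1500 and 2530 CPM against 759, 1760 and 2890 CPM) had one of −0.23 ± 0.093. In both, the ranges of the genotypes overlapped widely, since batches 1 to 3 and batch 4 differed in level or the pairs differed among themselves.

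Among the large subunit genes, *Rpl21* gave the lowest estimate. It lay at 16.7, 134 and 264 CPM in *Scnn1b*-Tg and at 61.2, 148 and 266 CPM in WT. In batch 4 its values were 58.0, 25.6 and 16.7 CPM in *Scnn1b*-Tg and 68.2, 67.9 and 61.2 CPM in WT, so the *Scnn1b*-Tg libraries spread more than 3-fold while the WT libraries stayed close. The log2 difference of −0.55 ± 0.28 was −0.14 in batches 1 to 3 and −0.99 in batch 4 alone, and −0.36 without *Scnn1b*-Tg replicate 6. *Rpl37a* read 180, 688 and 1790 CPM against 346, 854 and 1720 CPM, with a difference of −0.38 ± 0.17, which was −0.25 without *Scnn1b*-Tg replicate 6. *Rplp2*, a protein of the acidic stalk that contacts translation factors, read 352, 766 and 1320 CPM against 484, 891 and 1840 CPM. Its difference was −0.27 ± 0.095, and −0.27 in batches 1 to 3 as well as in batch 4. *Rpl39* (157, 225 and 275 CPM against 155, 278 and 297 CPM) had a difference of −0.22 ± 0.095 and *Rpl13* (435, 726 and 1600 CPM against 551, 883 and 1740 CPM) one of −0.21 ± 0.087. No cytoplasmic ribosomal gene separated the 6 *Scnn1b*-Tg from the 6 WT libraries, a separation found in 0.259% of all rows.

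**Figure D2:**
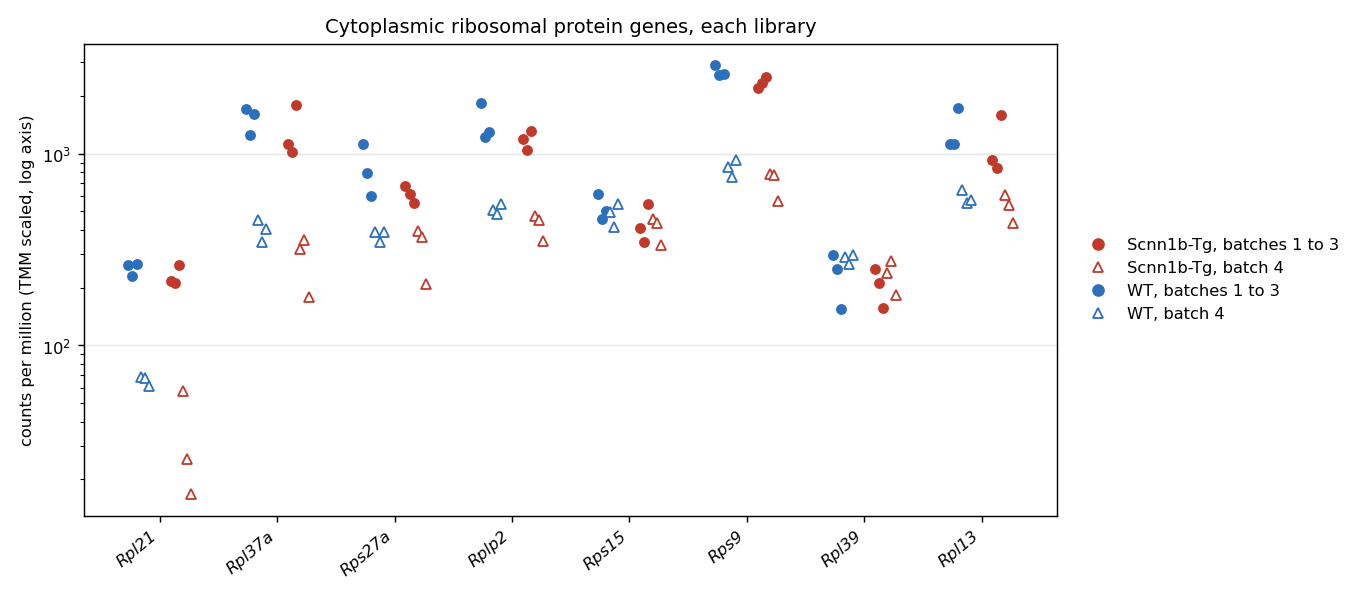
CPM (log axis) of 8 cytoplasmic ribosomal genes (horizontal axis) in each of the 12 libraries, coloured by genotype, with filled circles for batches 1 to 3 and open triangles for batch 4. In batch 4 the *Scnn1b*-Tg values of *Rpl21* (16.7 to 58.0 CPM) lie below those of WT (61.2 to 68.2 CPM).

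Single libraries or pairs carried part of the size of these estimates. In batches 1 and 2, 9 of 9 cytoplasmic genes were lower in the *Scnn1b*-Tg library, with median log2 ratios of −0.38 and −0.24. In batch 3, 5 of 9 were lower and 4 higher, with a median of −0.01 and a range of −0.12 to 0.14. In batch 4, 9 of 9 had a lower mean, with a median of −0.27. *Scnn1b*-Tg replicate 6 was the lowest of the 6 batch 4 libraries in 8 of the 9 genes, and it was the lowest in 15.3% of all rows. WT replicate 1 was the highest of batches 1 to 3 in 6 of the 9, and in 16.0% of all rows. The median of −0.27 became −0.22 without *Scnn1b*-Tg replicate 6. With batch as a covariate, leaving out *Scnn1b*-Tg replicate 1 or WT replicate 1 drops the whole pair of batch 1. Either way the median was −0.22, so the 2 libraries of that pair cannot be told apart in this respect. Without both *Scnn1b*-Tg replicates 1 and 6, a setting added after seeing the data, the median was −0.13, with 9 of 9 estimates still lower.

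The mitochondrial ribosomal genes had estimates in both directions. Of the 6, 4 had a lower and 2 a higher estimate in *Scnn1b*-Tg, with a median log2 difference of −0.20. *Mrps30*, a protein that belongs to the large mitochondrial subunit despite its name, was measured at 13.3, 23.8 and 30.1 CPM in *Scnn1b*-Tg and at 21.8, 27.3 and 34.7 CPM in WT. The *Scnn1b*-Tg library was lower in each pair, and in batch 4 the ranges overlapped. The log2 difference was −0.32 ± 0.11, with −0.47 in batches 1 to 3 and −0.17 in batch 4 fitted alone. *Mrps28* (7.17, 19.0 and 39.4 CPM against 8.64, 23.9 and 41.8 CPM) differed by −0.22 ± 0.081, and its batch 4 values did not overlap. *Mrpl9* (27.4, 29.9 and 42.2 CPM against 28.9, 39.4 and 45.6 CPM) and *Mrps33* (23.9, 68.2 and 118 CPM against 25.9, 78.0 and 133 CPM) both had a difference of −0.20, with SEs of 0.092 and 0.095. For *Mrps33* it was −0.11 without WT replicate 5.

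*Mrps27*, a small subunit protein, and *Mrpl42* had the higher estimates. *Mrps27* read 14.8, 18.4 and 24 CPM in *Scnn1b*-Tg and 11.6, 14.2 and 19.4 CPM in WT. The *Scnn1b*-Tg library was the higher of each pair in batches 1 to 3, where the difference was 0.60, and in batch 4 the genotypes overlapped, with a difference of 0.12. Over all 12 libraries it was 0.36 ± 0.15, and 0.22 without *Scnn1b*-Tg replicate 2 or without WT replicate 2. Either omission drops the pair of batch 2 from the genotype estimate. *Mrpl42* read 26.6, 44.3 and 128 CPM against 19.0, 42.3 and 105 CPM, with a difference of 0.22 ± 0.092, and its pair in batch 3 was nearly equal at 58.6 and 58.7 CPM.

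**Figure D3:**
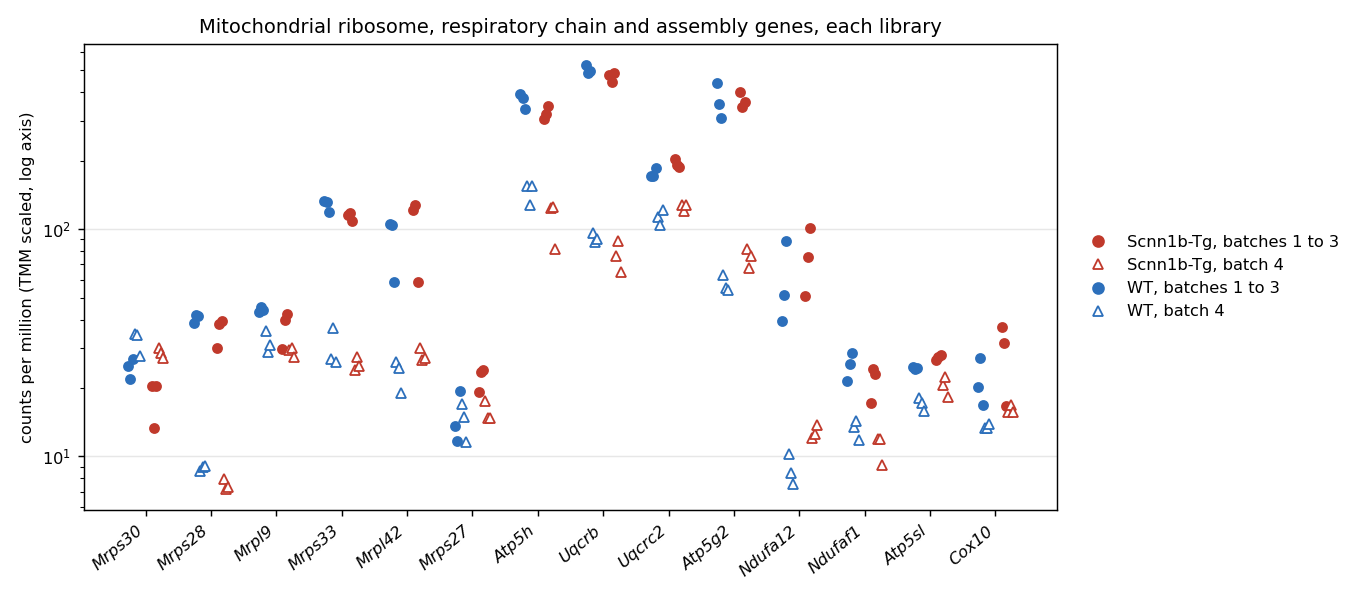
CPM (log axis) of the mitochondrial ribosomal, respiratory chain and assembly factor genes in each of the 12 libraries, by batch and genotype. *Cox4i2* is left out because of its zeros. *Ndufa12* lies at 39.3 to 101 CPM in batches 1 to 3 and at 7.58 to 13.8 CPM in batch 4.

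In the respiratory chain, 3 subunits had a higher and 3 a lower estimate in *Scnn1b*-Tg, with a median of −0.02. *Ndufa12* (chr10:94198720-94221443, plus strand), an accessory subunit of complex I, had the lowest p-value of the members. It was measured at 12.1, 32.3 and 101 CPM in *Scnn1b*-Tg and at 7.58, 24.8 and 88.9 CPM in WT. Its pairs read 50.8 against 39.3, 75.4 against 51.3 and 101 against 88.9 CPM, and in batch 4 the values were 12.1, 12.5 and 13.8 CPM against 10.2, 8.49 and 7.58 CPM. The *Scnn1b*-Tg library was the higher of every pair, and in batch 4 the genotypes did not overlap. The log2 difference was 0.46 ± 0.099, with an adjusted p-value of 0.134 in edgeR and 0.0022 in DESeq2.

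The complex III genes had estimates of opposite sign, neither of which passed the test. *Uqcrc2*, a core protein of complex III, read 120, 158 and 204 CPM in *Scnn1b*-Tg and 104, 146 and 186 CPM in WT, with a difference of 0.14 ± 0.059. *Uqcrb*, which binds ubiquinone in the same complex, read 65.0, 265 and 486 CPM against 87.9, 291 and 526 CPM, with a difference of −0.18 ± 0.079. The same held for the ATP synthase genes. *Atp5h*, a subunit of the peripheral stalk, read 81.9, 214 and 347 CPM against 128, 246 and 391 CPM, a difference of −0.29 ± 0.12. *Atp5g2*, which encodes the c subunit of the proton-driven ring, read 67.7, 213 and 402 CPM against 54.2, 186 and 437 CPM, a difference of 0.21 ± 0.093. For *Atp5g2* the difference was 0.02 in batches 1 to 3, where the pairs of batches 1 and 2 had the lower value in *Scnn1b*-Tg (402 against 437 and 344 against 355 CPM), and 0.39 in batch 4, where the genotypes did not overlap. *Cox4i2*, an isoform of a complex IV subunit that is known from lung, was counted in all 6 libraries of batches 1 to 3 and in 1 of the 6 of batch 4. Its counts were 129, 90, 55, 0, 0 and 0 in *Scnn1b*-Tg and 125, 164, 57, 0, 0 and 21 in WT. A count of 0, found in 5 of the 6 batch 4 libraries, allows a level of up to 0.0474 to 0.0621 CPM for counting error alone, and no fold is given.

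The assembly factors help to build the complexes and are not part of them. *Ndufaf1*, a complex I assembly factor, read 9.21, 14.5 and 24.2 CPM in *Scnn1b*-Tg and 11.8, 17.9 and 28.4 CPM in WT, a difference of −0.25 ± 0.11. *Cox10*, which takes part in making heme A for complex IV, read 15.7, 16.7 and 37.0 CPM against 13.3, 15.4 and 27.0 CPM, a difference of 0.30 ± 0.12. The pair of batch 1 was the widest for *Cox10*, at 37.0 against 20.2 CPM, and without either of its libraries the difference was 0.18. The pair of batch 3 was nearly equal, at 16.6 and 16.8 CPM. *Atp5sl*, named for its likeness to an ATP synthase subunit, read 18.2, 24.5 and 27.9 CPM against 15.9, 21.2 and 24.7 CPM, a difference of 0.21 ± 0.088. The letters-only member *Rps6kc1* read 4.83, 15.6 and 19.2 CPM against 12.8, 18.3 and 26.7 CPM, a difference of −0.48 ± 0.17. It was −0.30 without *Scnn1b*-Tg replicate 3 or without WT replicate 3, and either omission drops the pair of batch 3.

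Across all members, 18 estimates were lower and 7 higher in *Scnn1b*-Tg. By batch, 13 of the 25 were lower in *Scnn1b*-Tg in each of the 4 batches, and 4 were higher in each, beside 7.22% and 10.2% of all rows. In batch 4, 11 of the 25 did not overlap between genotypes, beside 15.0% of all rows, and 0 of 25 did not overlap over all 12 libraries. These counts use the contrast that chose the members.

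**Figure D4:**
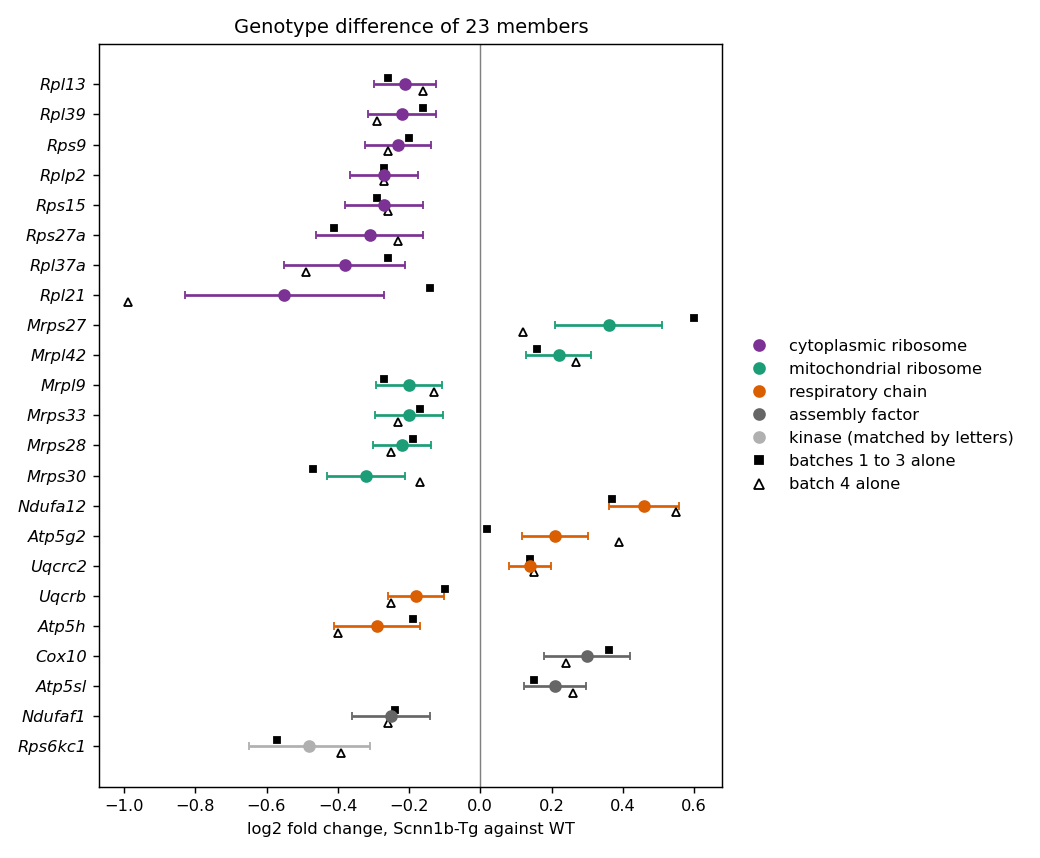
Log2 difference of *Scnn1b*-Tg minus WT (horizontal axis) for 23 members with SE bars from edgeR, with the estimates of batches 1 to 3 alone and batch 4 alone as separate marks. *Cox4i2* is left out. The 8 cytoplasmic ribosomal genes drawn lie between −0.55 and −0.21. The mitochondrial ribosomal, respiratory chain and assembly factor genes lie on both sides of 0, and *Rps6kc1* lies at −0.48.

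Whether the genotype difference itself differed between batches 1 to 3 and batch 4 is a test other than the one that chose the members. None of the 25 members passed it in edgeR (0 at an adjusted p under 0.1, lowest adjusted p 0.631, with 0.112% of all rows called), and DESeq2 called 0 as well, with a lowest adjusted p of 0.1, at the threshold, and 1.7% of the rows it tested called. At an unadjusted p under 0.05, edgeR counted 2 of 25, against 6.66% of all rows. Among these was *Atp5g2*, with a difference of differences of −0.37 ± 0.15. A miss of the threshold does not show equal differences: for *Rpl21* the 2 estimates were −0.14 and −0.99. A genotype difference that varies between batches also adds spread to a genotype test with batch as a covariate. The choice of members by such a p-value may therefore have shaped these counts.

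The members' levels were also compared between batches. In edgeR's test of the mean of batches 1 to 3 against batch 4, which the choice of members did not use, 22 of the 25 passed at an adjusted p under 0.1, 19 higher in batches 1 to 3 and 3 higher in batch 4. Of all rows 59.3% passed, 30.9% higher in batches 1 to 3 and 28.4% higher in batch 4, with a median log2 difference of 0.11. With libraries scaled by their totals alone, that median was −0.37, 16 members passed as higher in batches 1 to 3 and 5 as higher in batch 4, and the shares of all rows were 19.8% and 43.2%. Between the batches 19 of the 25 did not overlap, beside 32.1% of all rows. What differs between the batches, such as kit, read type or day, is not given for each library, so these causes cannot be told apart.

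All 6 respiratory chain genes were higher in batches 1 to 3, with 3 of them past a log2 difference of 2.4 apart from *Cox4i2*. *Ndufa12* was higher by 2.60 ± 0.10 (edgeR adjusted p 2.6e-08), *Uqcrb* by 2.53 ± 0.083 (1.1e-08) and *Atp5g2* by 2.48 ± 0.098 (2.5e-08). *Atp5h* was higher by 1.45 ± 0.12 and *Uqcrc2* by 0.65 ± 0.059, or by 0.17 when scaled by library total. Together the 6 genes took up 0.116% to 0.129% of all counts in batches 1 to 3 and 0.0445% to 0.0512% in batch 4, with no overlap.

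The mitochondrial ribosome split. *Mrps28* (2.22 ± 0.085), *Mrps33* (2.13 ± 0.099) and *Mrpl42* (1.85 ± 0.095) were far higher in batches 1 to 3, and *Mrpl9* was higher by 0.42 ± 0.092, but stood at −0.06 when scaled by library total. *Mrps30* was higher in batch 4, with a difference of −0.54 ± 0.11, or −1.02 with library totals. *Mrps27*, at 0.26 ± 0.15, did not pass (edgeR adjusted p 0.184), although it passed at 0.35 without WT replicate 2 and at 0.34 without WT replicate 4, and stood at 0.09 without *Scnn1b*-Tg replicate 2. All 3 assembly factors were higher in batches 1 to 3, *Ndufaf1* by 0.93 ± 0.11, *Cox10* by 0.70 ± 0.12 and *Atp5sl* by 0.47 ± 0.088, though with library totals *Ndufaf1* stood at 0.46, *Cox10* did not pass (0.22) and *Atp5sl* stood at −0.0049. *Rps6kc1* was higher in batch 4 (−0.80 ± 0.17, or −1.27 with library totals).

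Of the cytoplasmic ribosomal genes, 6 were higher in batches 1 to 3, in the order *Rpl21* (2.36 ± 0.29), *Rpl37a* (2.05 ± 0.17), *Rps9* (1.70 ± 0.095), *Rplp2* (1.49 ± 0.097), *Rpl13* (1.08 ± 0.088) and *Rps27a* (1.02 ± 0.15), of which the last pair stood at 0.60 and 0.55 with library totals. The SEs of *Rpl21* and *Rpl37a* overlapped, as did those of *Rpl13* and *Rps27a*. *Rpl39* was higher in batch 4, with −0.26 ± 0.095 (edgeR adjusted p 0.0397), or −0.74 with library totals. *Rps15* did not pass, at 0.09 ± 0.11 (edgeR adjusted p 0.562), but with library totals alone it passed as higher in batch 4, at −0.39. The ratio between genes of one ribosome was thus not constant across the batches: *Rps9* over *Rps15* was much higher in batches 1 to 3, where *Rps9* had 2210 to 2890 CPM and *Rps15* 346 to 614 CPM, than in batch 4, where they had 567 to 930 CPM and 333 to 549 CPM.

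**Figure D5:**
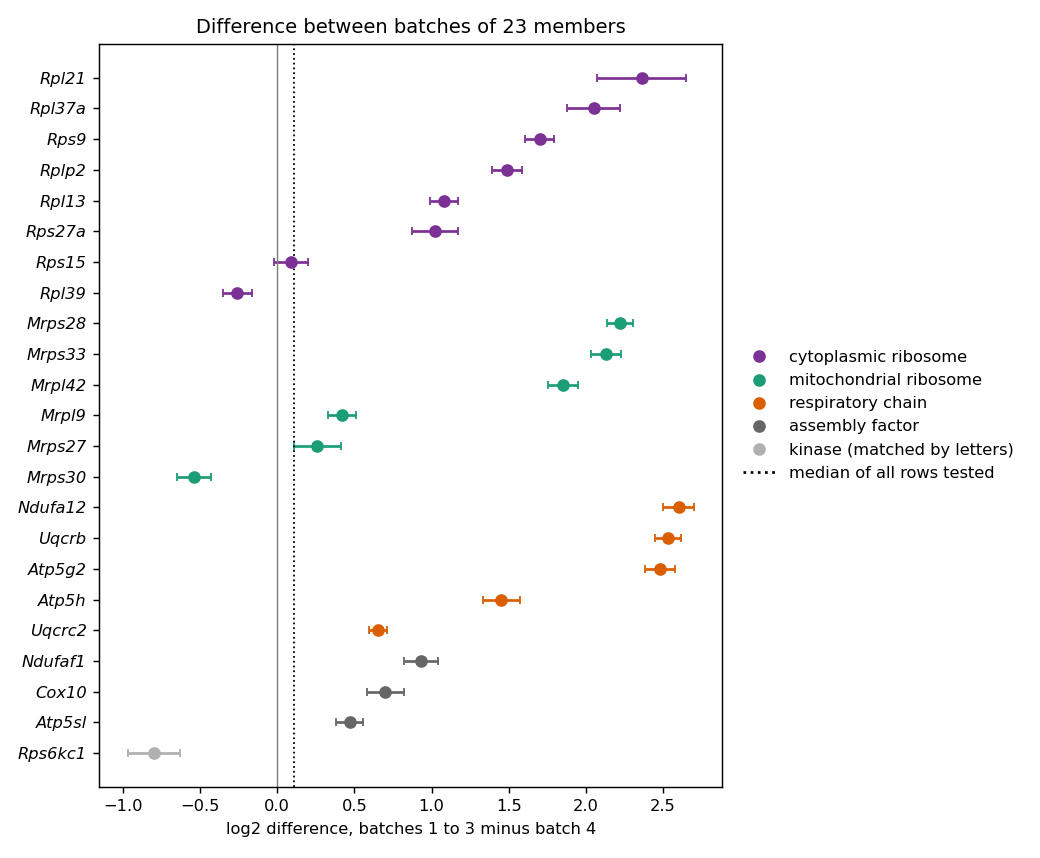
Log2 difference of the mean of batches 1 to 3 minus batch 4 (horizontal axis, SE bars from edgeR) for 23 members by subgroup, with a line at the median of all rows, 0.11. *Cox4i2* is left out. *Ndufa12* lies at 2.60 and *Rps6kc1* at −0.80.

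Neighbouring pathways were sparsely named. Of ribosome biogenesis genes 8 had a name and 0 passed edgeR's test of genotype at an adjusted p under 0.1. Of these, 5 had a lower estimate in *Scnn1b*-Tg, among them the nucleolar proteins *Ncl* (−0.18), *Fbl* (−0.28) and *Gar1* (−0.43), and 3 a higher one, among them *Surf6* (0.55). Of 5 translation factors 3 had a lower and 2 a higher estimate, and of 4 aminoacyl-tRNA synthetases 2 each, with 0 called in either list. The 3 named genes of the tricarboxylic acid cycle all had a higher estimate, among them *Idh3b* at 0.23 and *Mdh2* at 0.27, and 0 were called. Mitochondrial import (*Timm10* at −0.29 and *Timm8b* at 0.32) and 4 mitochondrial carriers (2 lower, 2 higher) had 0 called. No gene of the mitochondrial genome had a name. These lists carry the same selection by p-value as the members. Of all rows, 0.442% passed that test of genotype, so 0 called in lists this small says little about them.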

How the data were processed

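RNA was measured in 6 libraries of *Scnn1b*-Tg and 6 of WT AMs. The authors aligned reads to mm10 with HISAT2 in the nf-core RNAseq pipeline, without strand, and derived counts per gene from StringTie through prepDE. The deposited values are estimated counts, whole numbers derived from transcript coverage, not normalized. The labels give batches, and genotype and batch were taken from them. Rows were paired with gene names by fitting 12 weights to the listed means of the study's supplement, which was used for identity only. The largest relative difference of a pair was 6.4e-15 and any other row was at least 2.9e-07 away. In a check on genes kept out of the fit of the weights, 999 of 999 got the same row. The names are selected by p-value, and 17162 rows have none. Fold changes and p-values of that supplement were not used.

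The fit used edgeR 4.0.16 in R 4.3.3 (TMM, edgeR's filter on low counts, quasi-likelihood test, batch with 4 levels as a covariate, Benjamini-Hochberg adjustment over 16972 rows). SEs were computed from the fold change and F. DESeq2 1.42.0, other scalings, no filter, other blocks, parts of the libraries and each library left out were the alternatives. On simulated pairings with weights as close to the starting values as the real ones (within 0.037%), 1795 of 1795 genes got their own row. With weights drawn far from the start the procedure failed (2 of 1789), leaving relative differences of up to 0.093. On simulated counts with 200 rows changed by 1.5 on the log2 scale, edgeR recovered 51% for genotype (15887 rows, 13.6% false calls), 21% for the difference between batches (15876 rows, 4.55% false) and 51% for batch (15100 rows, 11.3% false). Every member by the symbol rule is named, except 1 that enters the counts but is not reported here by itself. The members and lists were chosen with earlier results of these data known. Batch pairs the libraries by the labels. In batches 1, 2 and 3, deviations from the mean of all 6 libraries of a genotype had correlations of 0.599, 0.622 and 0.453. For the numbers within batch 4, deviations from the mean of its 3 libraries per genotype had −0.0644, 0.00143 and −0.00582. The former also hold the difference between batches 1 to 3 and batch 4. These sets are therefore not on one measure and do not decide the pairing. All 30 pairs of libraries that share a genotype differed by more than sampling noise (chi-square per row at least 52.5). Estimated counts are not reads, and limits from a count of 0 cover counting error only. Promoters came from RefSeq and gene bodies from GENCODE M21, both on GRCm38.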

Additional observations from a re-analysis of the deposited data

Results flagged for a closer look

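Groups of 6 libraries were examined, 48 in all, 1 per genotype for 24 of the 25 members. Each group mixes batches 1 to 3 with batch 4, which did not overlap in 19 of the 25 members. A single library has less room to stand apart in such a group, so the chance rate of about 1 in 20 does not apply. Of the 48 groups, 1 held a library far from the others. *Rpl39* in WT replicate 3 (batch 3) had 155 CPM, with the next at 250 CPM, and its partner *Scnn1b*-Tg replicate 3 had 157 CPM.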

How the results depend on the processing

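The 18 lower and 7 higher estimates of *Scnn1b*-Tg against WT kept their directions under the other scalings, tests, filters, blocks and left-out libraries that were run, with *Cox4i2* dropping out of batch 4 alone. The count of members called was 0 in edgeR and 2 with DESeq2, and it ranged from 0 to 0 with 1 library left out. Without the replicate block for batch it was 0, and with a replicate block of 6 pairs it was 0. At an unadjusted p under 0.05 in edgeR, these fits counted 0 and 20 members. The share of all rows in these fits is not given and this contrast chose the members, so those counts are no result about them. The block changed no call. With 1 library left out, the cytoplasmic median ranged from −0.34 to −0.22. For the genotype difference between batches the count was 0 throughout, from 0 to 0. For batches 1 to 3 against batch 4 it was 22 to 23 with 1 library left out, and 21 when scaled by library total, which moved the median of all rows from 0.11 to −0.37 and turned *Mrpl9* to −0.06, *Mrps27* to −0.22, *Rps15* to −0.39 and *Atp5sl* to −0.0049. With 1 library left out, *Rps15* ranged from −0.03 to 0.13. The names cover genes with low p-values only, so the rest of each complex was not seen, and sparse *Cox4i2* counts limit its comparison.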
